A study of Homo sapiens with 12 samples.

Results

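The genes described here are 9 genes of MHC class I antigen presentation, taken by name from the 29972 gene rows of each of 2 deposited tables: the heavy chains HLA-B, HLA-C and HLA-E, the light chain B2M, the peptide-loading genes TAP1, TAP2 and TAPBP, the proteasome subunit PSMB9 and the transactivator NLRC5. All 9 were present in both tables, all had reads in every library, and all were tested in both lines. Messenger RNA was sequenced from 2 established human cell lines labelled as triple-negative breast cancer, MDA-MB-436 and BoM-1833, the latter a bone-tropic derivative of MDA-MB-231. In each line, 3 libraries came from cells given a pool of non-targeting small interfering RNAs (siNT) and 3 from cells given 2 siRNAs against PHF19 in equal parts (siPHF19), which makes 12 libraries. Total siRNA was 5 nM and cells were used 72 h after transfection. The control pool was bought from another supplier than the siRNAs against PHF19, which were given only as 1 mix, so that the loss of PHF19 and other actions of these siRNAs cannot be told apart. The labels name no interferon treatment. The labels do not say that replicates came from separate cultures, so p-values measure the spread between these libraries, which may be technical. This spread was wider among siNT than among siPHF19 replicates in both lines (chi-square per degree of freedom 5.92 to 24.1 against 2.29 to 3.45).

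MHC class I molecules display peptides from inside the cell at its surface, where CD8 T cells read them, while natural killer cells sense their absence. Proteasomes cut the peptides, TAP1 and TAP2 form the transporter that brings them into the endoplasmic reticulum, and TAPBP (tapasin) holds the heavy chain beside the transporter until a peptide is bound. NLRC5 acts at a conserved promoter module of the class I genes, and interferon acts at a separate response element. PRC2, the Polycomb complex that places a repressive methyl mark on histone H3, is known to silence this pathway in tumours, and PHF19 is one of its accessory subunits.

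MDA-MB-436 libraries had 15.2 to 24.0 M reads in genes, and BoM-1833 libraries 13.7 to 21.3 M. PHF19 fell to 9.75% of its siNT mean in MDA-MB-436 (log2 fold change -3.36, SE 0.11, in the authors' deposited table). In BoM-1833 10.9% of it remained (-3.19, SE 0.10). ESR1 and PGR, the hormone receptors that triple-negative lines lack, had at most 4 and 2 reads in a library. The leukocyte gene PTPRC had at most 19 reads and CD3E had 0 in all 12 libraries.

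Promoter sequences from RefSeq (GRCh38.p14, 250 bases before to 50 bases after the start) matched 7 of the 9 genes, and none was found for HLA-E or NLRC5. Stretches of 6 of them are shown because they hold elements through which this pathway is known to be controlled. HLA-B and HLA-C share most of their promoter, with 269 of 304 aligned columns identical (88.5%). Capitals mark, on either strand, TGACG (the core of the X2 box of the module on which NLRC5 acts), CCAAT (the Y box, ATTGG when reversed), a pair of TTTC blocks separated by 2 bases (the interferon-stimulated response element, GAAA blocks when reversed) and GGG and TCC separated by 4 bases (a kappaB-type site). Adjacent or overlapping matches run together.
HLA-B: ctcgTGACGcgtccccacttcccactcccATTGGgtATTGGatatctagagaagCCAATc
HLA-C: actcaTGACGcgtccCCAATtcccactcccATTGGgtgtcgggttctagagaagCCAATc
B2M: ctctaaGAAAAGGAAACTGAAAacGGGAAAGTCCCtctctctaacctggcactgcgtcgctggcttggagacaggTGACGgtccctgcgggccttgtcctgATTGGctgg
TAP1: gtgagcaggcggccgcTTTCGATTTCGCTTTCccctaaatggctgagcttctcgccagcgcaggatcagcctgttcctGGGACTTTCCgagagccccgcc
TAP2: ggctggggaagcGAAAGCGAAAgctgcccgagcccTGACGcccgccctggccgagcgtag
TAPBP: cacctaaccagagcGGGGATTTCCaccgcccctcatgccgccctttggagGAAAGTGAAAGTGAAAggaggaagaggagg

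These stretches lie at chr6:31357230-31357289 (HLA-B, minus strand), chr6:31272143-31272202 (HLA-C, minus), chr15:44711367-44711476 (B2M, plus), chr6:32853755-32853854 (TAP1, minus), chr6:32838750-32838809 (TAP2, minus) and chr6:33314069-33314148 (TAPBP, minus). The TAP1 stretch lies between the starts of TAP1 and PSMB9, which are 488 bases apart and point away from each other. B2M, TAP1 and TAPBP each held 2 matches to the interferon element within these 300 bases, and TAP2 held 1. HLA-B, HLA-C and PSMB9 held no match to this exact pattern, which does not show that they lack such an element. Some matches lie outside the stretches shown, such as a kappaB-type match of HLA-C that begins 172 bases before its start. Of 35116 promoters of this length, 3.57% held this element, 24.6% TGACG, 34.6% CCAAT and 22.6% the kappaB-type site. A separate interferon-gamma element, TTC and GAA separated by 3 bases, was found in 7.66% of all promoters and in TAP1 alone among the 7 genes, in the window of another TAP1 start. A match is a run of letters and not a measured site.

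According to RefSeq, all but 2 of the genes lie in the MHC region of chromosome 6. HLA-C (chr6:31268749-31272092, minus strand) and HLA-B (chr6:31353875-31357179, minus) are close relatives in sequence, and HLA-E (chr6:30489509-30494194, plus) stands apart from them. TAP2 (chr6:32821831-32838739, minus), TAP1 (chr6:32845209-32853704, minus) and PSMB9 (chr6:32854192-32859851, plus) form a block, with TAPBP (chr6:33299694-33314078, minus) further along. B2M (chr15:44711517-44718145, plus) and NLRC5 (chr16:56989557-57083520, plus) lie outside the MHC. Reads were assigned over the exons of each gene. Heavy chain genes share much of their sequence and are highly polymorphic, and RSEM, which the submitters' processing notes name, divides reads that fit several genes between them, so a value of HLA-B, HLA-C or HLA-E can contain reads of a relative. Some annotated transcripts of PSMB9 overlap TAP1 on the opposite strand, and the strand setting of the counting is not given in the sources used here.

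Most of the 9 genes were called higher in BoM-1833, and few were called in MDA-MB-436. A test of the difference between the lines, given below, passed for HLA-B alone. After siPHF19, 6 of the 9 genes were higher in BoM-1833 (HLA-B, HLA-C, B2M, TAP1, TAPBP and PSMB9) at an adjusted p under 0.05 in the authors' deposited DESeq2 table, and none was lower. Without siNT replicate 2 or any siPHF19 replicate, only B2M and TAPBP kept their calls there. Among all 12906 genes tested in that line 10.9% were called, 5.21% higher and 5.72% lower. In MDA-MB-436 2 of the 9 genes were called, TAPBP higher and HLA-B lower, against 22.1% of 14243 genes tested, 10.5% higher and 11.5% lower. The share called in MDA-MB-436 was therefore close to that of all genes. The median log2 fold change of the 9 genes was 0.23 in BoM-1833 against -0.00 in MDA-MB-436, and that of all genes tested was -0.00 in both. All changes were small, from -0.06 to 0.39 in BoM-1833 and from -0.26 to 0.27 in MDA-MB-436 on the log2 scale. Libraries of siPHF19 lay wholly above siNT for 7 of the 9 genes in BoM-1833, where 31% of all tested genes had groups that did not overlap in either direction, and for TAPBP alone in MDA-MB-436, where the share was 42.2%. In bulk RNA, a change in every cell and a change in a part of the cells cannot be told apart.

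**Figure D1:**
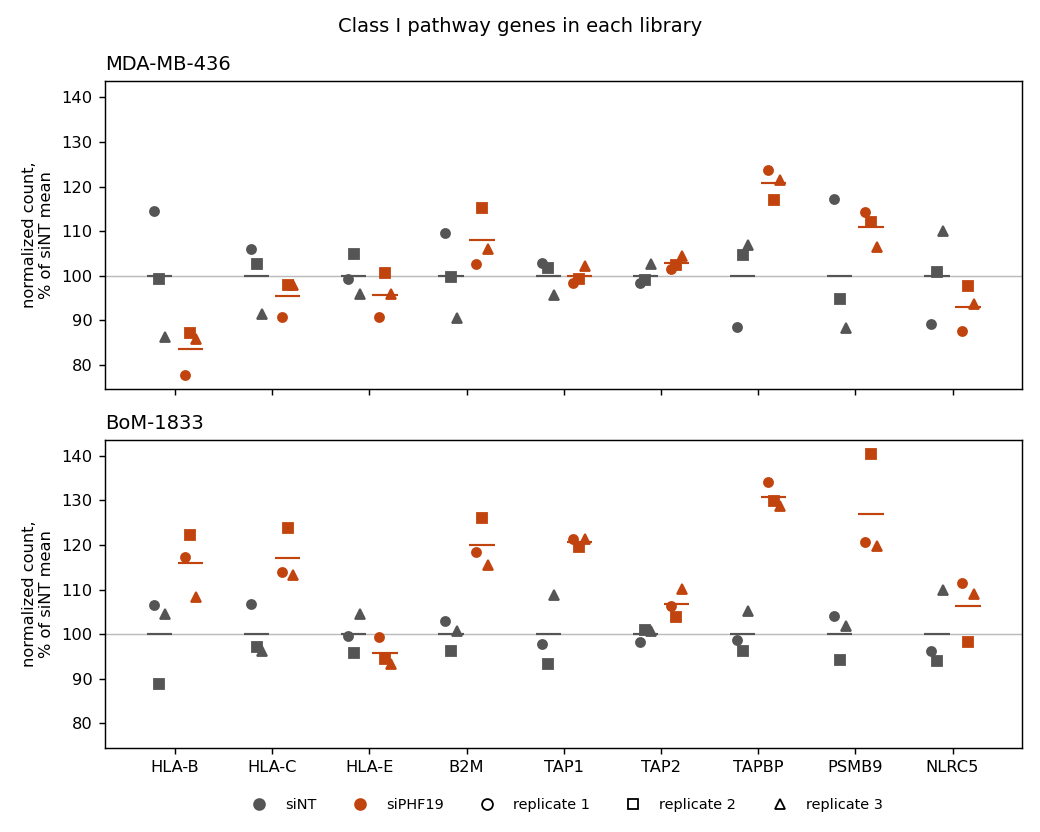
Normalized count of each gene in each library as a percentage of the siNT mean of its line (vertical axis), for siNT (grey) and siPHF19 (orange); symbols are replicates 1 to 3 and horizontal bars are group means. In BoM-1833 the orange points lie above the grey ones for 7 genes, and in MDA-MB-436 for TAPBP alone.

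TAPBP, which encodes tapasin, was the gene that rose in both lines. The siNT libraries of BoM-1833, replicates 1 to 3 in this order here and below, gave normalized counts of 4395, 4283 and 4689, and the siPHF19 libraries 5973, 5787 and 5737. Every treated library exceeded every control library by a wide margin, and the rise of 0.39 on the log2 scale (SE 0.06, adjusted p 5.19e-09, DESeq2) is one of 30.9%. The MDA-MB-436 libraries gave 3063, 3626 and 3698 for siNT and 4286, 4049 and 4206 for siPHF19. Again the groups did not overlap, with siNT replicate 1 the lowest, and the rise was 0.27 (SE 0.08, adjusted p 0.00937), or 20.7%. The TAPBP call in BoM-1833 held when any library was left out. In MDA-MB-436 it was lost without siPHF19 replicate 1 (adjusted p 0.098) or replicate 3 (0.0762).

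B2M, the light chain without which heavy chains do not reach the surface, rose in BoM-1833. Its normalized counts there were 9345, 8740 and 9144 in siNT and 10754, 11435 and 10481 in siPHF19. The groups were separate, and the log2 fold change was 0.26 (SE 0.06, adjusted p 1.46e-04, DESeq2), an increase of 20.0%. This call also held without any 1 of the libraries. In MDA-MB-436 the counts were 16006, 14561 and 13219 in siNT and 14983, 16797 and 15468 in siPHF19, and they overlapped. The difference there was 0.11 (SE 0.08, adjusted p 0.386). It passed only without siNT replicate 1, the highest control library, at an adjusted p of 0.0164.

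HLA-B, a classical heavy chain, was called in opposite directions in the lines. Normalized counts in MDA-MB-436 were 6534, 5657 and 4915 for siNT and 4425, 4964 and 4885 for siPHF19. The control libraries spread widely and the lowest of them lay inside the treated range. The mean went from 5702 ± 810.3 to 4758 ± 291 (SD, n = 3), or -0.26 on the log2 scale (SE 0.10, adjusted p 0.0477, DESeq2). In BoM-1833 the counts were 4155, 3466 and 4078 in siNT and 4572, 4769 and 4226 in siPHF19. Here all treated libraries lay above all controls, and the rise was 0.21 (SE 0.08, adjusted p 0.0494). Both HLA-B calls are near the threshold. Leaving out any library other than siNT replicate 3 ended the call in MDA-MB-436 (adjusted p 0.092 to 0.261), and leaving out siNT replicate 2 or any siPHF19 replicate ended it in BoM-1833 (0.0612 to 0.383). With edgeR neither was called after the filter on low counts (adjusted p 0.0757 and 0.0872), and both were called without it.

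HLA-C, the other classical heavy chain measured here, rose in BoM-1833 from 2271, 2068 and 2046 normalized counts in siNT to 2427, 2635 and 2411 in siPHF19. The log2 fold change was 0.23 (SE 0.07, adjusted p 0.0183, DESeq2) and the groups did not overlap. In MDA-MB-436 the siNT libraries gave 7206, 6966 and 6214 and the siPHF19 libraries 6159, 6657 and 6653. These ranges overlapped, with a difference of -0.07 (SE 0.08, adjusted p 0.593). The HLA-C call in BoM-1833 held without siNT replicate 1 and was lost without any other library (adjusted p 0.0651 to 0.262) and in edgeR with all 4 groups in one fit (0.0532).

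HLA-E, a non-classical heavy chain that presents leader peptides of other class I molecules to an inhibitory receptor of natural killer cells, was not called in either line. Its log2 fold change was -0.06 in both (SE 0.09 for MDA-MB-436 and 0.06 for BoM-1833), with 95% intervals of -0.23 to 0.11 and -0.18 to 0.05. In BoM-1833 its counts ran from 5873 to 6404 in siNT and from 5722 to 6084 in siPHF19, and in MDA-MB-436 from 1006 to 1100 and from 951 to 1055. It was the only one of the 9 genes with a negative estimate in BoM-1833.

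Because reads can move between related heavy chains, sums were also compared. HLA-B and HLA-C together fell from 12497 ± 1310 to 11247 ± 576 (SD, n = 3) in MDA-MB-436, with overlapping groups (exact 2-sided permutation p = 0.3), so the sum is not shown to differ. In BoM-1833 they went from 6028 ± 454 to 7013 ± 383 without overlap (exact permutation p = 0.1, the smallest that 3 against 3 libraries allow). With HLA-E added, the BoM-1833 sum went from 12156 ± 648 to 12877 ± 452 with overlap (exact permutation p = 0.3). All 9 class I heavy chain rows together went from 18339 ± 1095 to 19848 ± 626 there, also with overlap (exact permutation p = 0.2). Neither wider sum is thus shown to differ in BoM-1833. The ratio of HLA-B to HLA-C in MDA-MB-436 was 0.907, 0.812 and 0.791 in siNT and 0.719, 0.746 and 0.734 in siPHF19. That ratio was lower in every treated library, whereas in BoM-1833 it was 1.83 ± 0.158 and 1.82 ± 0.0658 with overlap. The sum of all 9 class I heavy chain rows, pseudogenes included, over B2M fell in both lines without overlap, from 1.24 ± 0.0135 to 1.05 ± 0.0453 (SD, n = 3) for MDA-MB-436 and, for BoM-1833, from 2.02 ± 0.0526 to 1.82 ± 0.0357 (exact permutation p = 0.1 in each). Heavy chain mRNA was thus lower relative to B2M mRNA in all 6 treated libraries than in the controls of the same line.

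TAP1, an ATP-driven subunit of the peptide transporter, rose in BoM-1833. Its counts were 1211, 1156 and 1348 in siNT and 1504, 1481 and 1503 in siPHF19. The treated libraries were nearly equal and all lay above the controls, and the log2 fold change was 0.27 (SE 0.08, adjusted p 0.00813, DESeq2). In MDA-MB-436 the values were 1178, 1166 and 1096 in siNT and 1128, 1138 and 1171 in siPHF19. There the estimate was -0.00 (SE 0.08, 95% interval -0.16 to 0.15). The TAP1 call in BoM-1833 was lost without siNT replicate 2 or any siPHF19 replicate (adjusted p 0.0691 to 0.127).

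TAP2, the partner of TAP1 in the transporter, changed little. In BoM-1833 its counts were 3113, 3195 and 3190 in siNT and 3367, 3286 and 3485 in siPHF19, which do not overlap. The difference of 0.09 (SE 0.06, adjusted p 0.388, DESeq2) did not pass the test. In MDA-MB-436 the TAP2 estimate was 0.04 (SE 0.07), with counts from 1403 to 1465 in siNT and from 1449 to 1491 in siPHF19.

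PSMB9, the inducible subunit that replaces the constitutive PSMB6 in the immunoproteasome, rose in BoM-1833 from 455, 411 and 446 counts in siNT to 527, 615 and 524 in siPHF19. The groups were separate, siPHF19 replicate 2 was the highest, and the log2 fold change was 0.34 (SE 0.11, adjusted p 0.0193, DESeq2). In MDA-MB-436 PSMB9 gave 289, 234 and 218 in siNT and 282, 277 and 263 in siPHF19. The control range enclosed the treated one, and the difference of 0.15 (SE 0.15, adjusted p 0.511) was not called. The PSMB9 call in BoM-1833 held without siNT replicate 1 and was lost without any other library (adjusted p 0.0555 to 0.295).

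NLRC5, the transactivator of class I genes, did not pass the test in either line. Its counts were the lowest of the 9 per length, at 294, 332 and 362 in siNT and 288, 321 and 308 in siPHF19 of MDA-MB-436. BoM-1833 gave 233, 228 and 266 in siNT and 270.2, 238 and 264 in siPHF19. The groups overlapped in both lines, with log2 fold changes of -0.10 (SE 0.13) and 0.09 (SE 0.14) and 95% intervals of -0.36 to 0.15 and -0.18 to 0.36.

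**Figure D2:**
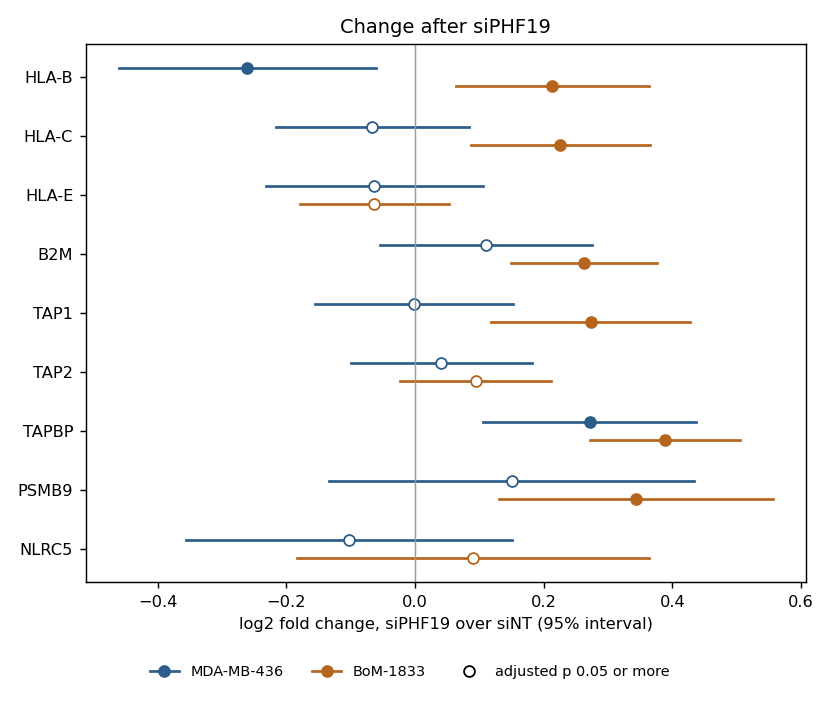
Log2 fold change of siPHF19 over siNT (horizontal axis) with its 95% interval for each gene in MDA-MB-436 (blue) and BoM-1833 (brown), from the authors' deposited fits; filled points have an adjusted p under 0.05. HLA-B lies at -0.26 and 0.21 on opposite sides of 0, while HLA-E is at -0.06 in both lines.

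Whether the response differed between the lines was tested gene by gene, with the difference of the deposited log2 fold changes over its standard error. HLA-B differed, by 0.47 (BoM-1833 minus MDA-MB-436, SE 0.13, 95% interval 0.22 to 0.72, adjusted p 0.0079, z test on the DESeq2 estimates). It was the only one of the 9 genes to pass, and 4.89% of the 12290 genes tested in both lines did so. HLA-C (0.29, adjusted p 0.0838) and TAP1 (0.27, adjusted p 0.153) had the next largest differences in the same direction and did not pass. The remaining 6 genes differed by 0.00 (HLA-E) to 0.19 (PSMB9 and NLRC5), with adjusted p-values of 0.494 or more. A call in BoM-1833 beside no call in MDA-MB-436 is therefore not shown to be a difference between lines for HLA-C, B2M, TAP1 or PSMB9. The HLA-B difference was lost without MDA-MB-436 siPHF19 replicate 1 (adjusted p 0.0778), BoM-1833 siNT replicate 2 (0.053) or BoM-1833 siPHF19 replicate 2 (0.0513), and in edgeR with all 4 groups in one fit (0.0549). HLA-C passed without MDA-MB-436 siNT replicate 3 (0.00607) or BoM-1833 siNT replicate 1 (0.0116).

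The control libraries of the lines held these mRNAs at unlike levels. For this comparison the 12 libraries were normalized together and levels are given in CPM, reads scaled to an equal library total. HLA-E gave 55.2, 59.0 and 53.5 in the siNT libraries of MDA-MB-436 and 371, 357 and 387 in those of BoM-1833, a 6.64-fold higher level (log2 2.73, adjusted p 6.60e-16, edgeR). HLA-C went the other way, with 383, 374 and 330.1 in MDA-MB-436 and 138, 126 and 124 in BoM-1833, a 2.80-fold higher level in MDA-MB-436 (adjusted p 3.73e-12). No library of one line reached the range of the other for either heavy chain. TAP2 was 2.53-fold, PSMB9 2.02-fold and TAP1 1.23-fold higher in BoM-1833, and TAPBP was higher there by 0.55 on the log2 scale. B2M was 1.41-fold, HLA-B 1.28-fold and NLRC5 1.19-fold higher in MDA-MB-436. All 9 differences passed in edgeR, where 82.8% of the 15035 genes tested did, so the count of calls is near the background. That of NLRC5 (adjusted p 0.0259) was lost without MDA-MB-436 siNT replicate 2 (0.0617) or 3 (0.0982) or BoM-1833 siNT replicate 1 (0.0686) or 2 (0.094). For the heavy chains, the level of an allele and how well its reads match the reference allele cannot be told apart.

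**Figure D3:**
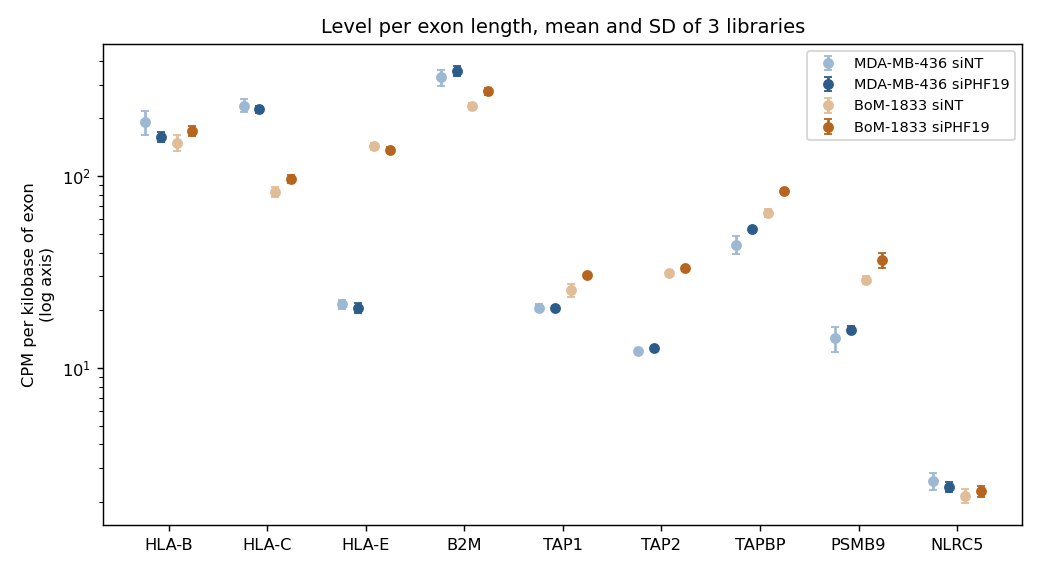
CPM per kilobase of exon (vertical log axis) for each gene in the 4 groups, as mean and SD of 3 libraries. HLA-E is at 21.5 and 20.6 in MDA-MB-436 and at 143 and 136 in BoM-1833, and NLRC5 is the lowest in all 4 groups.

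Per kilobase of exon, B2M was the most abundant of the 9 mRNAs in every group. In MDA-MB-436 siNT the order of levels, in CPM per kilobase, was B2M 327 ± 31.1 (SD, n = 3), HLA-C 233, HLA-B 192, TAPBP 44.0, HLA-E 21.5, TAP1 20.6, PSMB9 14.3, TAP2 12.3 and NLRC5 2.57. Neighbours whose libraries overlapped were HLA-C with HLA-B, HLA-E with TAP1, and PSMB9 with TAP2. In BoM-1833 siNT the order was B2M 232 ± 8.03 (SD, n = 3), HLA-B 149, HLA-E 143, HLA-C 83.1, TAPBP 64.4, TAP2 31.1, PSMB9 28.8, TAP1 25.4 and NLRC5 2.16, with overlap between HLA-B and HLA-E and between PSMB9 and TAP1. HLA-E thus held a place among the classical heavy chains in BoM-1833 and was level with TAP1 in MDA-MB-436. After siPHF19 the first 4 places were unchanged in each line. TAPBP went from 44.0 to 53.2 in MDA-MB-436, and BoM-1833 went from 64.4 to 84.1. This rise of TAPBP in BoM-1833, 1.31-fold in the deposited fit, was the largest among the 9 genes in either line.

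The other heavy chains and class I-like molecules were described by a list of 16 genes, of which 13 were tested in MDA-MB-436 and 11 were in BoM-1833. In each line 3 rose and none fell. Of all genes tested, 22.1% were called in MDA-MB-436 (10.5% higher) and 10.9% in BoM-1833 (5.21% higher). The 3 of 13 in MDA-MB-436 was thus close to the share of all genes called in either direction. MICA and MICB, ligands of the activating receptor NKG2D, rose in both lines. MICB went from 1203, 1387 and 1486 normalized counts in siNT to 2488, 2417 and 2431 in siPHF19 of MDA-MB-436 (log2 fold change 0.85, adjusted p 1.14e-19, DESeq2). In BoM-1833 it went from 1088, 1166 and 1106 to 1759, 1707 and 1910 (0.68, adjusted p 1.47e-16). MICA rose by 0.44 (SE 0.07) in MDA-MB-436 and 0.50 (SE 0.09) in BoM-1833. These calls held without any 1 library, and both changes exceeded that of every one of the 9 genes in either line. HLA-F, a non-classical heavy chain, rose in BoM-1833 from 27.8, 21.2 and 23.8 counts to 53.6, 68.4 and 51.7 (log2 fold change 1.25, SE 0.33, adjusted p 0.00270). It was not called in MDA-MB-436 (-0.19, SE 0.16), and the call in BoM-1833 was lost without siPHF19 replicate 2 (adjusted p 0.0861). MR1, which presents vitamin metabolites, rose in MDA-MB-436 (0.97, adjusted p 0.0079) at 25.7 to 68.6 counts per library, and this was lost without siNT replicate 2, siPHF19 replicate 2 or siPHF19 replicate 3 (0.0658 to 0.114).

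Chaperones and trimming enzymes that work beside TAPBP moved in both directions. Of 11 such genes, 1 rose and 1 fell in MDA-MB-436 and 1 rose and 2 fell in BoM-1833, with list medians of 0.00 and -0.02. The shares of all genes called were 22.1% and 10.9%. ERAP1, which trims peptides in the endoplasmic reticulum, rose in MDA-MB-436 from 676, 825 and 959 counts to 1138, 1099 and 1051 (log2 fold change 0.42, adjusted p 0.00382, DESeq2), and was at -0.05 in BoM-1833. PDIA3, a disulfide isomerase bound to TAPBP in the loading complex, fell in MDA-MB-436 (-0.40, SE 0.10, adjusted p 3.41e-04) and was at -0.14 (adjusted p 0.0901) in BoM-1833. Both calls in MDA-MB-436 held without any 1 library. In BoM-1833 CALR, the chaperone calreticulin, rose by 0.15 (adjusted p 0.0411), while its relative CANX (-0.18, adjusted p 0.0141) and the folding sensor UGGT1 (-0.30, adjusted p 0.0144) fell. Each of these 3 calls was lost without siNT replicate 2, siPHF19 replicate 2 or siPHF19 replicate 3 (adjusted p 0.121 to 0.332). CALR was lost as well in every edgeR and limma fit and in DESeq2 without independent filtering (0.0599 to 0.193), CANX in limma without a filter on low values (0.126), and UGGT1 in edgeR with RLE factors and in limma with pseudocount 1, with and without the filter (0.0512 to 0.0609). CALR and UGGT1 were also lost without siNT replicate 3 (0.0864 and 0.161), and CALR and CANX without siPHF19 replicate 1 (0.131 and 0.0762).

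Beside PSMB9, 6 genes of the immunoproteasome and its activator were listed, and 1 of them rose in BoM-1833. The shares of all genes called were 10.9% in BoM-1833 and 22.1% in MDA-MB-436. PSMB8 and PSMB10, the other inducible catalytic subunits, gave 0.15 (SE 0.09) and 0.07 (SE 0.14) there and were not called. PSME2, a subunit of the interferon-inducible proteasome activator, rose by 0.24 (SE 0.07, adjusted p 0.0123, DESeq2) in BoM-1833, a call lost without any library other than siNT replicate 1 (0.0661 to 0.152) and in edgeR with all 4 groups in one fit (0.0782). In MDA-MB-436 0 of the 6 listed genes of this group were called, 0 had an unadjusted p under 0.05 in DESeq2 and 1 in edgeR. The constitutive catalytic subunits PSMB6 and PSMB7 fell in MDA-MB-436, by 0.31 (adjusted p 0.0296) and 0.24 (adjusted p 0.0108) on the log2 scale. PSMB6 was lost without any library other than siNT replicate 3 (0.0642 to 0.184), and with edgeR under TMM or RLE factors and every limma fit (0.0504 to 0.0668). PSMB7 was lost without siNT replicate 2 (0.0508), siPHF19 replicate 1 (0.161) or siPHF19 replicate 3 (0.107).

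Of 14 genes for factors that act at class I promoters, 1 was called in each line, both higher. This share was below the 22.1% of all genes called in MDA-MB-436 and the 10.9% in BoM-1833. IRF2, which binds the interferon element, rose in MDA-MB-436 (0.32, adjusted p 0.0192, DESeq2), and NFYB, a subunit of the factor that binds CCAAT, rose in BoM-1833 (0.27, adjusted p 0.0212). The call of IRF2 was lost without any library other than siNT replicate 3 (0.0671 to 0.201), and that of NFYB without any other than siNT replicate 1 (0.0538 to 0.154). IRF1, an activator at the same element, was at 0.18 (SE 0.10) and 0.14 (SE 0.09) and was not called. Among 13 genes of interferon receptors and signalling, IRF9, the DNA-binding part of an interferon-activated transcription complex, rose in MDA-MB-436 from 342, 401 and 325 counts to 562.5, 588 and 480.5 (0.61, adjusted p 3.45e-05). The kinase JAK1 also rose there (0.38, adjusted p 6.88e-04) and the receptor chain IFNAR1 fell (-0.26, adjusted p 0.00273). The calls of IRF9 and JAK1 held without any 1 library, and that of IFNAR1 was lost without siNT replicate 2, siPHF19 replicate 1 or siPHF19 replicate 3 (0.0645 to 0.112). MDA-MB-436, where IRF9 and JAK1 were called, was thus the line in which TAP1, B2M and PSMB9 were not, and the part of these factors in the class I values was not tested.

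**Figure D4:**
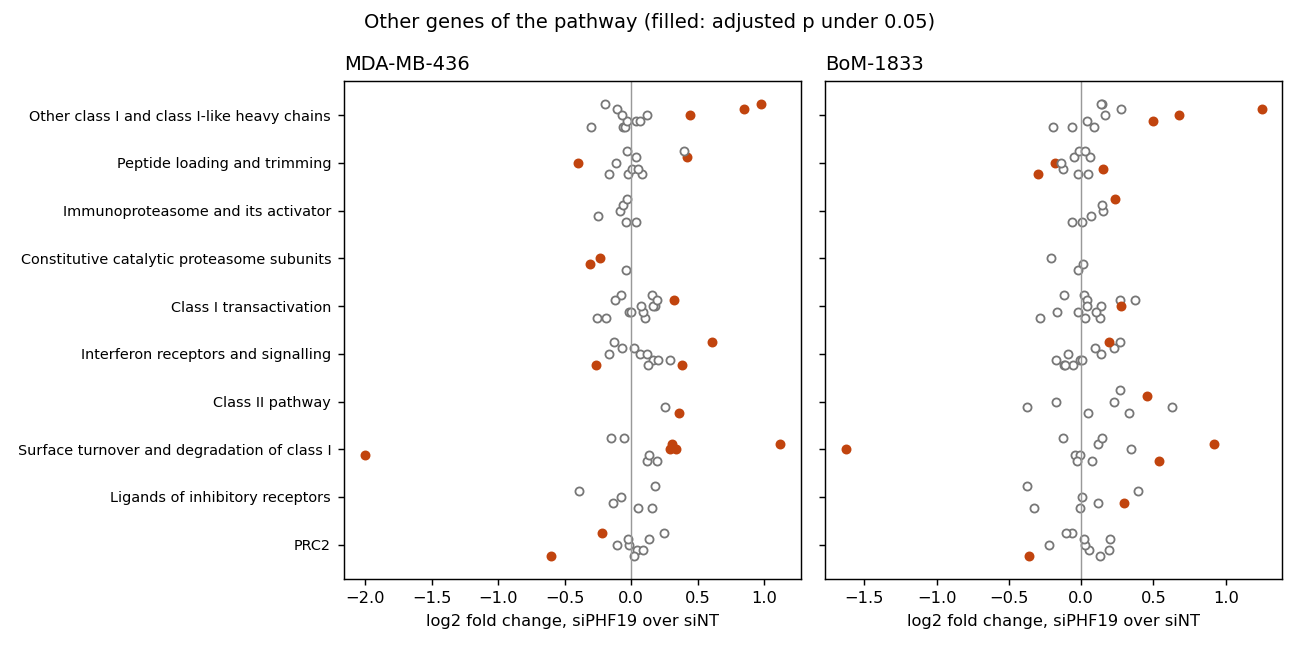
Log2 fold change of siPHF19 over siNT (horizontal axis) for the genes of 10 lists around the pathway, 1 point per tested gene and 1 panel per line, with filled points at an adjusted p under 0.05 and PHF19 left out. Most points lie near 0, and the outermost points are SPPL2A on the left in both panels and, on the right, MAL2 in MDA-MB-436 and HLA-F in BoM-1833.

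A further list held genes that act on class I protein or other membrane proteins after synthesis. Of its 16 names 11 matched a row, and 10 and 11 were tested in MDA-MB-436 and BoM-1833. MAL2, a membrane trafficking protein reported to draw class I from the surface of breast cancer cells, rose in MDA-MB-436 from 257, 236 and 220.1 counts to 531, 496 and 527 (log2 fold change 1.12, adjusted p 2.28e-19, DESeq2). In BoM-1833 MAL2 rose from 174, 139 and 213 to 315, 349 and 332 (0.92, adjusted p 2.07e-07). SPPL2A, an intramembrane protease of the signal peptide peptidase family, fell in both lines by 2.00 and 1.63 on the log2 scale (adjusted p 4.91e-51 and 9.54e-52). These calls held without any 1 library. TMEM127 (0.31, adjusted p 0.00151) and KIAA0247, now named SUSD6 (0.34, adjusted p 0.0163), which are reported to act together in class I degradation, and the ubiquitin ligase SYVN1 (0.29, adjusted p 0.00607) rose in MDA-MB-436. TMEM127 was lost without siPHF19 replicate 1 (0.052), KIAA0247 without siNT replicate 1, siPHF19 replicate 1 or siPHF19 replicate 2 (0.0724 to 0.181), and SYVN1 without siNT replicate 2, siPHF19 replicate 2 or siPHF19 replicate 3 (0.0508 to 0.114). No protein was measured in these samples.

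Of 13 listed genes of class II presentation MDA-MB-436 had 2 tested and BoM-1833 had 8. CTSS, a lysosomal protease, rose in the former (0.36, adjusted p 0.00231, DESeq2) and HLA-DMA, part of the class II peptide exchanger, in the latter (0.46, adjusted p 0.00545). CTSS was lost without siNT replicate 2, siPHF19 replicate 2 or siPHF19 replicate 3 (0.051 to 0.0993), and HLA-DMA without siNT replicate 2, siPHF19 replicate 1 or siPHF19 replicate 2 (0.0521 to 0.107). CIITA, the class II counterpart of NLRC5, had at most 4.89 counts in a library of MDA-MB-436 and was not called in BoM-1833 (-0.37, SE 0.20). Of 8 ligands of inhibitory receptors, PVRL2 (NECTIN2) rose in BoM-1833 (0.30, adjusted p 7.06e-05) and held without any 1 library. In MDA-MB-436 0 of 6 tested were called by DESeq2 or edgeR, and 3 had an unadjusted p under 0.05 in each. DESeq2 called 22.1% of all genes tested in that line. Within PRC2 itself, AEBP2, an accessory subunit, fell in both lines (-0.60, adjusted p 3.93e-09, and -0.36, adjusted p 0.0211) and the core subunit SUZ12 in MDA-MB-436 (-0.22, adjusted p 0.0122). The catalytic subunit EZH2 was at 0.14 and 0.20 and was not called. The AEBP2 call in BoM-1833 was lost without siNT replicate 2 or 3 or siPHF19 replicate 1 or 2 (0.0542 to 0.248), and that of SUZ12 without siNT replicate 2 or any siPHF19 replicate (0.0954 to 0.166).

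How alike the 9 genes were was described over the 12 libraries, after each line was centred on its own mean. TAP1 followed the mean of the other 8 most closely (Pearson r = 0.93), followed by B2M (0.78), HLA-C (0.72), PSMB9 (0.61), HLA-B (0.54), TAPBP (0.53) and TAP2 (0.45), while NLRC5 (0.21) and HLA-E (-0.12) did not follow it. The 5 genes outside the lists with the pattern most like the mean of the 9, among 9737 genes with a mean of at least 100 normalized counts in both lines, were CD24 (r = 0.93), CD99L2 (0.92), LY6E (0.91), ST3GAL5 (0.91) and SYTL2 (0.91). CD24 rose by 0.79 (adjusted p 1.08e-13, DESeq2), SYTL2 by 0.50 (0.00214), LY6E by 0.41 (2.58e-07) and CD99L2 by 0.32 (2.22e-04) in BoM-1833, ST3GAL5 gave 0.36 (0.0547) there, and the 5 estimates in MDA-MB-436 lay between -0.02 and 0.10 without a call. All 12 points share the siPHF19 contrast and library depth, so these values describe likeness only. The 5 genes were picked by this likeness in the same libraries. Their higher values in BoM-1833 and lack of a call in MDA-MB-436 therefore follow from the choice and are no separate result.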

How the data were processed

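Per the submitters' processing notes, reads were processed with STAR, RSEM 1.3.1 and DESeq2 1.46.0 on hg38. The annotation and strand setting are not given in the sources used here. The authors deposited 1 table per line. The library columns the authors deposited are a signal that was made by dividing each library's read counts by its own size factor. Fold changes and standard errors are on the authors' log2 scale, the Wald statistic is the authors' score, and p-values, raw and adjusted, are likewise deposited. Every library value (100%, within 0.1 read) was a whole multiple of 1 step, so reads were recovered; DESeq2 1.42.0 rerun on them gave the same 3143 and 1411 calls, and edgeR 4.0.16 called 3422 and 1527 genes. No column belonged to another series (0). A total of 28 gene names had become dates in each table, so some listed genes could not be matched.

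The 9 genes and all gene lists were chosen with earlier results of these data known. Within a line, calls are the deposited Wald tests at an adjusted p under 0.05 over all genes. Differences between lines used a 2-sided z test on the deposited estimates with Benjamini-Hochberg adjustment over 12290 genes. Levels between lines used edgeR's quasi-likelihood test (TMM, filterByExpr) on the 12 libraries together, and levels per length the summed exon length in GENCODE release 29. Exact permutation tests over 3 against 3 libraries cannot go below p = 0.1. Intervals cover 95%. Alternatives were edgeR with TMM or RLE factors and without a filter, limma 3.58.1 on log2(value + 1) or (value + 5) for genes with a mean of at least 10 and with no filter, DESeq2 without independent filtering, a replicate block, all 4 groups in one fit, and each library left out. Named genes are the 9, PHF19, every listed gene called in a line and the 5 outside genes most like the mean of the 9. The results of some genes that this rule selects are not reported here. In simulated reads a 1.5-fold change was found by DESeq2 in 67.9% of 106 changed genes among 13977 in MDA-MB-436 and in 75.0% of 92 among 13602 in BoM-1833. Most changes described here are smaller than that.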

Additional observations from a re-analysis of the deposited data

Results flagged for a closer look

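In 4 genes the change after siPHF19 differed between the lines in the z test on the DESeq2 estimates, adjusted over all genes tested in both lines (BoM-1833 minus MDA-MB-436 on the log2 scale). These are 4 of the 95 genes among the 9 and the lists that were tested in both lines (4.21%), a share close to the 4.89% of all genes. HLA-B differed by 0.47 (adjusted p 0.0079), with a fall in MDA-MB-436 and a rise in BoM-1833. In the z test the HLA-B call was lost without 3 of the libraries, as given above (0.0513 to 0.0778). In edgeR it was lost with all 4 groups in one fit (0.0549) and with a replicate block (0.166). It was also lost in edgeR without any library other than MDA-MB-436 siNT replicate 3 and BoM-1833 siNT replicate 1 (0.0712 to 0.15). HLA-F differed by 1.44 (adjusted p 0.00370), since it rose at low counts in BoM-1833 and not in MDA-MB-436, and this was lost without BoM-1833 siPHF19 replicate 2 (0.0787). JAK1 differed by -0.50 (adjusted p 0.00215) and kept its call in the z test without any 1 library. In edgeR the JAK1 difference passed with all 4 groups in one fit and was lost with a replicate block (0.0907) and without MDA-MB-436 siNT replicate 2 or siPHF19 replicate 1, or without BoM-1833 siNT replicates 2 or 3 or siPHF19 replicates 2 or 3 (0.0517 to 0.0713). ERAP1 differed by -0.47 (adjusted p 0.0313) and lost its call in edgeR with all 4 groups in one fit (0.0689) and without 9 of the 12 libraries: each MDA-MB-436 library other than siNT replicate 3, and BoM-1833 siNT replicates 2 and 3 and siPHF19 replicates 2 and 3 (0.0732 to 0.156).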

How the results depend on the processing

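The calls of TAPBP and B2M in BoM-1833 held in all 16 alternatives. In MDA-MB-436 the number of the 9 genes called went from 2 to 1 (TAPBP) with edgeR (TMM or RLE factors, or all 4 groups in one fit), with limma (pseudocount 1 or 5, or no filter on low values) and with DESeq2 without independent filtering, and ranged from 0 to 2 when 1 library was left out. In BoM-1833 it ranged from 2 to 6 when 1 library was left out, against 6. There it was 5, without HLA-B, with edgeR (TMM or RLE factors), limma (all 3 settings) and DESeq2 without independent filtering, 4, without HLA-B and HLA-C, in edgeR with all 4 groups in one fit, and 6 in edgeR with no filter on low counts. Same-numbered siNT and siPHF19 libraries did not deviate together (r from -0.13 to -0.07 for MDA-MB-436, and for BoM-1833 from -0.19 to -0.10). Unlike-numbered libraries gave higher r, from -0.02 to 0.11 for MDA-MB-436 and from -0.02 to 0.17 for BoM-1833. With 3 libraries per group these values cannot show whether the numbers pair libraries, and a shared batch was not tested. With a replicate block 0 genes were called in MDA-MB-436 (DESeq2; 2, HLA-B and TAPBP, at an unadjusted p under 0.05) and 2 (B2M and TAPBP) in BoM-1833. The number of genes whose change differed between lines went from 1 to 0 in edgeR with all 4 groups in one fit and to 0 in edgeR with a replicate block (3 at an unadjusted p under 0.05 in each), and ranged from 0 to 2 when 1 library was left out. The number that differed between lines in siNT libraries ranged from 8 to 9. The difference of HLA-E between lines, 0.00025, turned to -0.00592 in edgeR with all 4 groups in one fit and to -0.00611 with the block, and ranged from -0.0421 to 0.0382 when 1 library was left out. TAP1 in MDA-MB-436, at -0.00178, ranged from -0.0323 to 0.0178. Neither was called in any setting, and the cause of these changes was not tested. No scaling moved the median of all genes by more than 0.05. The depth gave 178 reads or more for each of the 9 genes in every library.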
